A study of Mus musculus with 33 samples.

Results

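The claudins Cldn1, Cldn3, Cldn4, Cldn5, Cldn6, Cldn7, Cldn9 and Cldn12, with occludin (Ocln) and the scaffold gene Tjp3, were followed by their symbols. They were read in 32 of the 33 value columns of an RNA-seq table of mouse fibroblasts being reprogrammed to pluripotency. These are 10 of the 37973 genes of the table, and they were chosen by results on their FPKM in these same libraries, between arms, days and gates. Their values are therefore given as a description, as differences with standard errors and with no p-value, and tests are given only for genes outside the 10.

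Tight junctions seal the space between epithelial cells near their apical surface. Claudins are tetraspan membrane proteins that polymerise into the sealing strands and set which ions and solutes pass between cells, occludin is a MARVEL-domain protein of the same strands, and cytoplasmic scaffolds such as Tjp1 and Tjp3 (ZO proteins) tie the strands to actin. Fibroblasts are mesenchymal and build no such strands, and the gain of epithelial genes is a known early step of reprogramming by the OSKM factors (Oct4, encoded by Pou5f1, and Sox2, Klf4 and Myc).

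The 30 OSKM libraries came from primary mouse embryonic fibroblasts of 14-15dpc embryos with the genotype Col1a1-OSKM+/-, Rosa26-rtTA+/- and Oct4-GFP+/-, transduced with lentivirus and grown with 1 μg/ml doxycycline, which switches on the tetO-driven cassette, in medium with ESC-grade serum and ESGRO. Of these, 17 were from cells given extra Dppa2 and Dppa4, which encode DNA-binding proteins of early embryos and germ cells, and 13 carried a control construct that the labels do not describe further. Cells were sorted on days 2, 4, 8, 11 and 14 by Thy1, a surface antigen of fibroblasts, by SSEA1, a carbohydrate antigen gained on the way to pluripotency, and by the Oct4-GFP reporter. The gates Thy1+SSEA1-, Thy1-SSEA1-, Thy1-SSEA1+ and GFP+ are listed by loss of Thy1, gain of SSEA1 and gain of GFP. That order does not rank Thy1+SSEA1- above Thy1-SSEA1- cells in fibroblast genes, as given below. The strain labels give crosses of B6;129S4-Pou5f1tm2Jae/J mice, which carry the reporter, with mice that carry rtTA*M2 at Rosa26 and the tetO cassette at Col1a1. A further pair, titled rtTA-MEF and labelled Rosa26-rtTA+/- and Oct4-GFP+/- with no Col1a1-OSKM allele, held 1 library per arm.

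Each arm, day and gate had 1 library, so the spread between libraries of the same condition is not known. A stratum is a day and gate held by both arms, and there were 13: days 2, 4, 8 and 14 of the Thy1+SSEA1- gate, days 2, 4, 8 and 11 of the Thy1-SSEA1- gate, days 8, 11 and 14 of the Thy1-SSEA1+ gate, and days 11 and 14 of the GFP+ gate. A count such as 12 of 13 strata therefore compares 12 pairs of libraries taken at different days and gates. The labels do not say which libraries came from separate embryos or cultures. Values are FPKM (fragments per kilobase of transcript, scaled to library size), and differences are on the log2(FPKM + 1) scale, which shortens the changes of genes at low FPKM. The depth implied by the lowest values was 21.5 to 43.1 M fragments (M, mega) in the OSKM libraries, and 13.8 M and 16.2 M in the Dppa2/4 and control libraries titled rtTA-MEF.

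The arm labels held in the values of Dppa2 and Dppa4, with an exception. Dppa2 was at 81.8 to 599 FPKM in the other 8 SSEA1- libraries of the Dppa2/4 arm and at 0.15 to 0.92 FPKM in the 8 SSEA1- control libraries. In the library labelled Dppa2/4 day 4 Thy1+SSEA1-, Dppa2 was at 0.35 FPKM and Dppa4 at 0.41 FPKM, which are control levels, and the fits between the arms are also given without it. In GFP+ cells the arms did not stand apart, with Dppa2 at 49.3 to 61.5 FPKM in 3 Dppa2/4 libraries and at 45.4 to 66.1 FPKM in 2 control libraries.

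The windows of 250 bases just upstream of a RefSeq transcription start (GRCm38.p6) are shown for 4 members that stand for the patterns below: Cldn4 and Cldn7, which were highest in SSEA1+ cells, Ocln, which was higher in every Dppa2/4 stratum, and Cldn5, which was near 0 in every control library. Capitals mark matches, on either strand, to CACCTG, the E-box bound by Snai and Zeb repressors, and to GGGCGG, the GC box of Sp1. The windows lie at chr5:134946935-134947184 on the minus strand for Cldn4, chr11:69964529-69964778 on the plus strand for Cldn7, chr13:100552719-100552968 on the minus strand for Ocln and chr16:18776597-18776846 on the plus strand for Cldn5.
Cldn4: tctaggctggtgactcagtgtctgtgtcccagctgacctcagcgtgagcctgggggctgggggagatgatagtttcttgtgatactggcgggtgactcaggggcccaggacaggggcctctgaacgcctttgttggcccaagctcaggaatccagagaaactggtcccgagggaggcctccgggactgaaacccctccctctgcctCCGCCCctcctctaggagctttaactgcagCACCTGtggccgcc
Cldn7: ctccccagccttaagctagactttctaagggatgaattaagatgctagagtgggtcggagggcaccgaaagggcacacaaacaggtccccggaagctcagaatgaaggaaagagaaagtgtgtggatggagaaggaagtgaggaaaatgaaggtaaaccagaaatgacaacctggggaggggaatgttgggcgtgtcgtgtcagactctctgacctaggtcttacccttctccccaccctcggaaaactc
Ocln: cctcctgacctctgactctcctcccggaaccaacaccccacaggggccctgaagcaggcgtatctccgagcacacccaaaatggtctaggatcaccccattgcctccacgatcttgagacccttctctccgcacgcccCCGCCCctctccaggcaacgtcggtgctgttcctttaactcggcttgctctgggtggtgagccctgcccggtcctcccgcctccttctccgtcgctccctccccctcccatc
Cldn5: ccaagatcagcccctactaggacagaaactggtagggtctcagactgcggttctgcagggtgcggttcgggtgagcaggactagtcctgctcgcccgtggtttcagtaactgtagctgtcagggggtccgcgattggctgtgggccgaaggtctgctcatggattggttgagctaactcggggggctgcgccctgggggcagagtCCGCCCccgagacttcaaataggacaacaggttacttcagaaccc

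In the Cldn4 window the E-box letters began 14 bases before the start (position -14 in the gene's direction). The Cldn7 and Ocln windows shown end at the annotated gene start, and each of these genes has another RefSeq window that is not shown. That of Cldn7, at chr11:69965171-69965420, held E-box letters at -97 and -57 and a GC box at -6, while the window shown holds neither. That of Ocln, at chr13:100552499-100552748, held E-box letters at -213 and -68 and a GC box at -43, while the window shown holds a GC box only. RefSeq gave 14 windows for 9 of the 10 members, several of them overlapping, and none for Cldn9. CACCTG or its reverse complement CAGGTG was in 6 of the 14 windows, against 17.2% of all 32851 mouse windows of that length, and GGGCGG or CCGCCC was in 10 of 14, against 32.7%. The Grainyhead motif AACCGGTT was in 0 of 14 windows, against 0.116% of all, and TATAAA or TTTATA was in 0 of 14, against 12.4%. These are counts of letters in short windows, and binding was not measured here.

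The libraries differed in which claudin made up the summed signal. Cldn12, a broadly expressed claudin without the usual PDZ-binding tail, held 15.9% of the summed FPKM of the 10 genes in Dppa2/4 day 2 Thy1+SSEA1- cells, against 90.8% in control cells of that day and gate. Cldn4, Cldn6 and Cldn7 together held 41.5% and 2.45% of it in the same libraries. In GFP+ cells of day 14 these 3 genes held most of the sum in both arms, at 76.5% in Dppa2/4 cells and 85.0% in control cells. The sum itself was 29.4 to 131 FPKM in Dppa2/4 and 20.6 to 29.3 FPKM in control libraries of the Thy1+SSEA1- gate. Its lowest Dppa2/4 value there was that of the day 4 library with Dppa2 at control level, and the other Dppa2/4 libraries of the gate were at 96.4 to 131 FPKM. In the Thy1-SSEA1+ gate the sum was 209 to 379 FPKM in Dppa2/4 and 121 to 371 FPKM in control libraries. RNA was measured in sorted bulk samples, in which more cells of a type and more RNA per cell cannot be told apart.

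**Figure D1:**
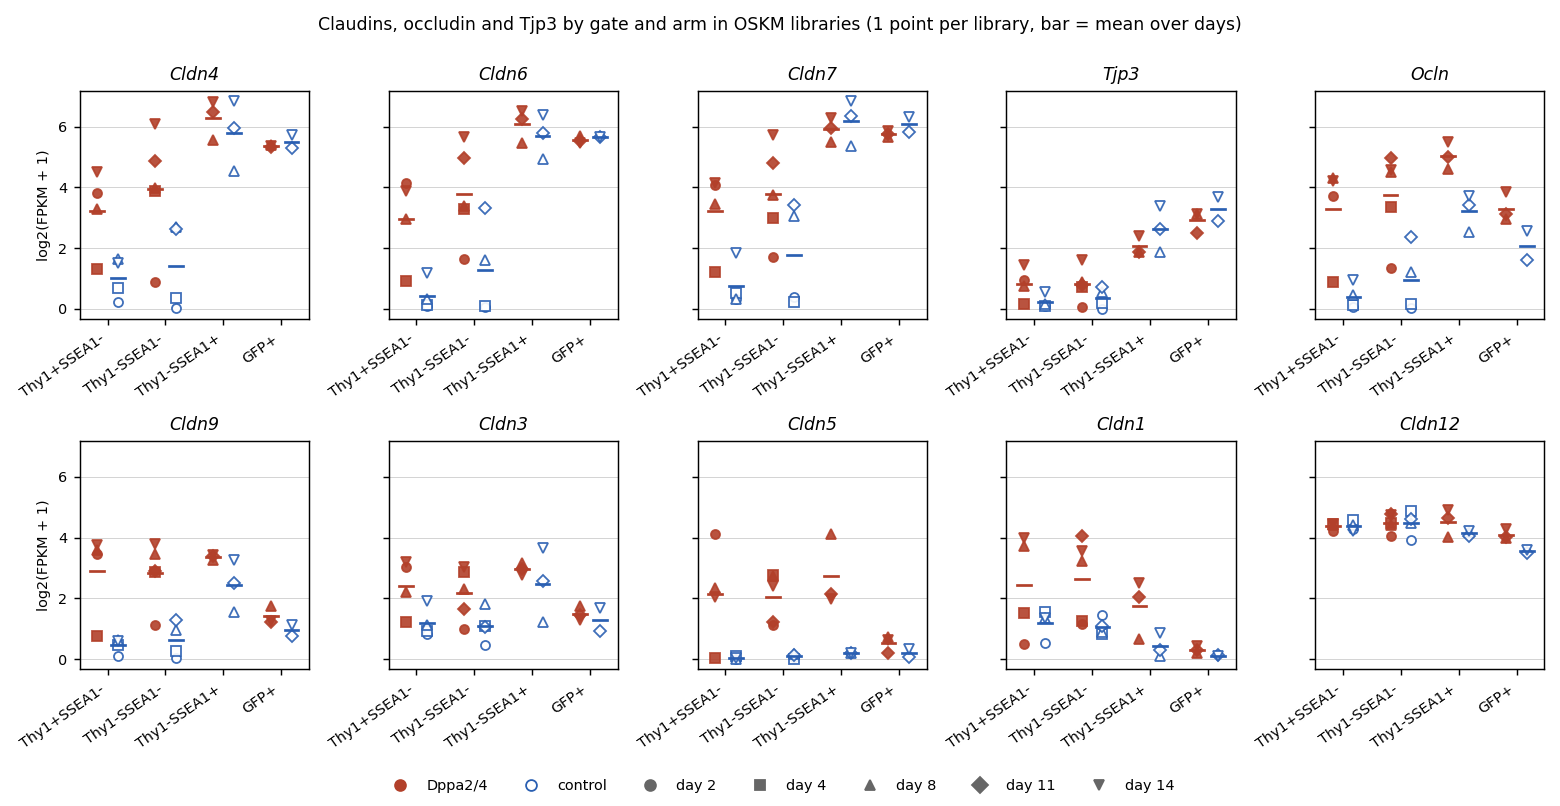
Level of each of the 10 genes as log2(FPKM + 1) by gate, 1 point per OSKM library, with Dppa2/4 libraries filled and control libraries open, the marker shape giving the day and the bar the mean over days. Cldn4, Cldn6 and Cldn7 reach overlapping heights in both arms in Thy1-SSEA1+ and GFP+ cells, while Ocln does not overlap between the arms in those gates and Cldn12 varies least.

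Across the 13 strata the fit of Dppa2/4 against control gave differences above 0 for all 10 genes, with a median of 1.26 on the log2 scale against 0.03 over all 17242 genes tested. The fit placed 8 of the 10 members past an adjusted p of 0.05 as higher and 0 as lower, where 23.5% of all genes passed, 15.9% as higher and 7.6% as lower. Nothing is read from that count, since the genes were chosen with this contrast known. All 10 members had passed the filter, which asked for 1 FPKM or more in 2 or more libraries.

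Ocln, the occludin gene, had the largest fitted difference of the 10 at a pseudocount of 1, while at 0.1 that of Cldn5 was larger (3.76, against 3.32 for Ocln). It was at 12.2, 0.83, 18.8 and 17.6 FPKM with Dppa2/4 in the Thy1+SSEA1- gate on days 2, 4, 8 and 14, against 0.034, 0.1, 0.37 and 0.94 FPKM in control cells of those days, and the arms overlapped only through the doubtful day 4 library. In Thy1-SSEA1- cells it was at 1.54, 9.25, 21.5, 30.7 and 23.0 FPKM in the Dppa2/4 arm on days 2, 4, 8, 11 and 14 and at 0.025, 0.12, 1.34 and 4.12 FPKM in the control arm on days 2, 4, 8 and 11. On days 2, 4, 8 and 11 each Dppa2/4 library of this gate was above the control library of its own day, and day 14 had no control library here. In Thy1-SSEA1+ cells of days 8, 11 and 14 it was at 23.4, 31.2 and 44.4 FPKM with Dppa2/4 and 4.82, 9.69 and 12.2 FPKM with control, and in GFP+ cells at 6.70, 7.64 and 13.3 FPKM with Dppa2/4 on days 8, 11 and 14 and 2.06 and 4.86 FPKM with control on days 11 and 14. The arms did not overlap in these gates. The fitted difference was 2.32 ± 0.27 (log2, SE), with Ocln higher in 13 of 13 strata, and 2.45 without the doubtful library.

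Cldn9, a claudin known from the inner ear, was higher in 13 of 13 strata. In Thy1+SSEA1- cells it was at 10.1, 0.68, 11.1 and 12.4 FPKM in the Dppa2/4 arm on days 2, 4, 8 and 14 and at 0.072, 0.39, 0.53 and 0.51 FPKM in the control arm. In Thy1-SSEA1+ cells of days 8, 11 and 14 it was at 8.61, 9.48 and 9.71 FPKM with Dppa2/4 and at 1.96, 4.72 and 8.58 FPKM with control, so the control level came close to that of Dppa2/4 cells by day 14. The fitted difference was 1.61 ± 0.31, and 1.72 without the doubtful library. Cldn9 ends 137 bases from Cldn6 on the opposite strand of chromosome 17, and whether reads were counted by strand is not given in the sources used here, so reads running past either gene's end could be counted for the other.

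Cldn3, a claudin of simple epithelia and one of the receptors of the Clostridium perfringens enterotoxin, was at 1.34 to 8.23 FPKM in Dppa2/4 and 0.79 to 2.76 FPKM in control libraries of the Thy1+SSEA1- gate, and its ranges overlapped in every gate. Its difference was 0.76 ± 0.23, or 0.79 without the doubtful library, and it was higher in 11 of 13 strata, the exceptions being the day 14 Thy1-SSEA1+ stratum, with 5.76 FPKM in Dppa2/4 and 11.6 FPKM in control cells, and the day 14 GFP+ stratum, with 1.45 and 2.22 FPKM in the Dppa2/4 and control cells.

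Cldn5, the main claudin of the blood-brain barrier endothelium, was present in the Dppa2/4 arm and near 0 in the other. No control library exceeded 0.25 FPKM in any gate. In the Dppa2/4 arm it was at 16.4, 0.03, 4.03 and 3.16 FPKM in Thy1+SSEA1- cells on days 2, 4, 8 and 14, at 1.15, 5.88, 5.62, 1.31 and 4.30 FPKM in Thy1-SSEA1- cells on days 2, 4, 8, 11 and 14, and at 16.2, 3.46 and 2.95 FPKM in Thy1-SSEA1+ cells on days 8, 11 and 14. It was high on day 2 in the first gate and on day 8 in the last of these, and lower on the later days of both. GFP+ cells of both arms held little of it, at 0.64, 0.15 and 0.54 FPKM with Dppa2/4 and 0.058 and 0.25 FPKM with control. The fitted difference was 1.85 ± 0.34, higher in 12 of 13 strata, and 2.00 with 12 of 12 strata without the doubtful library.

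Endothelial markers were read beside Cldn5. The summed FPKM of the 10 markers was 49.7 to 104 in Dppa2/4 and 35.2 to 48.5 in control Thy1+SSEA1- cells, and 7 of the 10 reached 1 FPKM in any library. Egfl7, a secreted factor, was called higher (0.83 ± 0.26, adjusted p = 0.0317) and was at 89.5, 14.2, 33.5 and 66.9 FPKM in Dppa2/4 and 14.8, 10.8, 8.29 and 25.4 FPKM in control Thy1+SSEA1- cells. Esam, an adhesion molecule of endothelium and platelets, was also called higher (1.25 ± 0.24, adjusted p = 0.0026), and Tek and Erg were called lower (-0.74 ± 0.17 and -0.77 ± 0.18, adjusted p = 0.0085 and 0.0073). Cdh5, Tie1 and Emcn were at or below 0.148, 0.472 and 0.318 FPKM in all 32 libraries, including those in which Cldn5 was highest. Of the rest of the list, Pecam1 reached 65.0 FPKM in Dppa2/4 GFP+ cells of day 14, Vwf 8.14 FPKM in control GFP+ cells of day 14 and Kdr 5.86 FPKM in the Dppa2/4 library titled rtTA-MEF. The part of endothelial genes in the Cldn5 values was not tested beyond these levels.

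Cldn1, the claudin of the skin barrier, joined late. In Thy1+SSEA1- cells it was at 0.41, 1.85, 12.2 and 14.7 FPKM in the Dppa2/4 arm on days 2, 4, 8 and 14, against 0.44, 1.90, 1.55 and 1.56 FPKM in the control arm on the same days. In Thy1-SSEA1- cells it was at 1.21, 1.37, 8.33, 15.5 and 10.7 FPKM in the Dppa2/4 arm on days 2, 4, 8, 11 and 14 and at 1.72, 0.78, 0.84 and 1.14 FPKM in the control arm on days 2, 4, 8 and 11. On days 2 and 4 the arms differed in either direction, and from day 8 on every Dppa2/4 library of these gates was above every control library. The fitted difference over all strata was 1.14 ± 0.30, with Cldn1 higher in 10 of 13 strata, and 1.23 without the doubtful library. The summed FPKM of 8 keratinocyte markers lay in a like range in both arms, at 2.00 to 4.07 FPKM in Dppa2/4 and 2.12 to 3.58 FPKM in control SSEA1- cells. Of the 8, 3 passed the filter, with 0 called higher and 1 lower. The median over all libraries was 1.51 FPKM for Krt10, 0.36 FPKM for Trp63 and at most 0.08 FPKM for the others. The sum therefore says little about markers other than Krt10.

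Cldn4, Cldn6 and Cldn7 were higher with Dppa2/4 in 8 of 8 SSEA1- strata, and differed less and in either direction in the later gates. Cldn4, a sealing claudin of simple epithelia, was at 13.2, 1.49, 8.83 and 21.6 FPKM with Dppa2/4 in the Thy1+SSEA1- gate on days 2, 4, 8 and 14, against 0.17, 0.60, 2.12 and 1.88 FPKM in control cells. In Thy1-SSEA1- cells it was at 0.87, 13.6, 14.7, 28.0 and 66.7 FPKM in the Dppa2/4 arm on days 2, 4, 8, 11 and 14 and at 0.027, 0.28, 5.43 and 5.17 FPKM in the control arm on days 2, 4, 8 and 11. Dppa2/4 was above control in all 8 of these strata. In Thy1-SSEA1+ cells of days 8, 11 and 14 it was at 45.9, 88.7 and 112 FPKM with Dppa2/4 and at 22.4, 60.7 and 114 FPKM with control, and in GFP+ cells at 40.9, 39.1 and 39.95 FPKM with Dppa2/4 and 38.1 and 51.6 FPKM with control. There the ranges of the arms overlapped.

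Cldn6, a claudin of embryonic epithelia and pluripotent cells, followed the same course. It was at 16.7, 0.89, 6.78 and 13.6 FPKM in Dppa2/4 and 0.068, 0.085, 0.25 and 1.25 FPKM in control Thy1+SSEA1- cells on days 2, 4, 8 and 14. In GFP+ cells it was at 51.2, 45.3 and 43.1 FPKM in Dppa2/4 cells on days 8, 11 and 14 and at 49.3 and 49.1 FPKM in control cells on days 11 and 14. The difference between the arms was thus 0.80 to 4.05 on the log2 scale over the days of the first gate, and -0.12 and -0.18 on days 11 and 14 in GFP+ cells.

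Cldn7, which binds the adhesion molecule Epcam, was at 16.0, 1.34, 9.94 and 16.9 FPKM in Dppa2/4 and 0.27, 0.44, 0.24 and 2.59 FPKM in control Thy1+SSEA1- cells on days 2, 4, 8 and 14. In Thy1-SSEA1+ cells of days 8, 11 and 14 the order of the arms was the other way on the later days, with 44.4, 61.5 and 76.9 FPKM in Dppa2/4 and 40.5, 80.2 and 114 FPKM in control cells. Over 13 strata the fitted differences were 1.38 ± 0.34 for Cldn4, 1.48 ± 0.34 for Cldn6 and 1.13 ± 0.37 for Cldn7, with 11, 11 and 9 strata higher. Without the doubtful library they were 1.44, 1.53 and 1.17, with 10, 10 and 8 of 12 strata higher. Such an average mixes strata that differ: the mean over the 8 SSEA1- strata was 2.10 ± 1.17 (SD) for Cldn4, 2.30 ± 1.04 for Cldn6 and 2.01 ± 1.15 for Cldn7, and over the 5 Thy1-SSEA1+ and GFP+ strata it was 0.24 ± 0.53, 0.17 ± 0.33 and -0.27 ± 0.29 in that order.

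Tjp3 and Cldn12 hardly differed between the arms as a whole. Tjp3, the ZO protein most confined to epithelia, was at or below 2.08 FPKM in the SSEA1- libraries of the Dppa2/4 arm and at or below 0.64 FPKM in those of the control arm, and higher with Dppa2/4 in 8 of 8 of these strata. These include log2 differences of 0.07 in the day 4 Thy1+SSEA1- pair, which held the doubtful library, and of 0.06 in the Thy1-SSEA1- pairs of days 2 and 11. In Thy1-SSEA1+ and GFP+ cells Tjp3 was lower with Dppa2/4 in 4 of 5 strata, at 4.65 to 7.76 FPKM in Dppa2/4 and 6.39 to 11.99 FPKM in control GFP+ cells. The fitted difference over all strata, 0.05 ± 0.16, changed sign in 5 of 24 alternatives: under quantile normalization, to -0.12, without the day 2 or the day 14 Thy1+SSEA1- pair, and without all of day 2 or of day 8. Cldn12 was at 15.0 to 28.9 FPKM in the OSKM libraries of the Dppa2/4 arm and at 10.3 to 28.1 FPKM in those of the control arm, with a difference of 0.17 ± 0.10 and 8 of 13 strata higher. In GFP+ cells its arms did not overlap, at 15.0 to 18.2 FPKM with Dppa2/4 and 10.3 to 11.1 FPKM with control. In Thy1-SSEA1+ cells of days 8, 11 and 14 it was at 15.4, 24.1 and 28.9 FPKM with Dppa2/4 and 17.3, 15.5 and 17.6 FPKM with control. Without the doubtful library the fitted differences over all strata were 0.05 for Tjp3 and 0.19 for Cldn12.

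**Figure D2:**
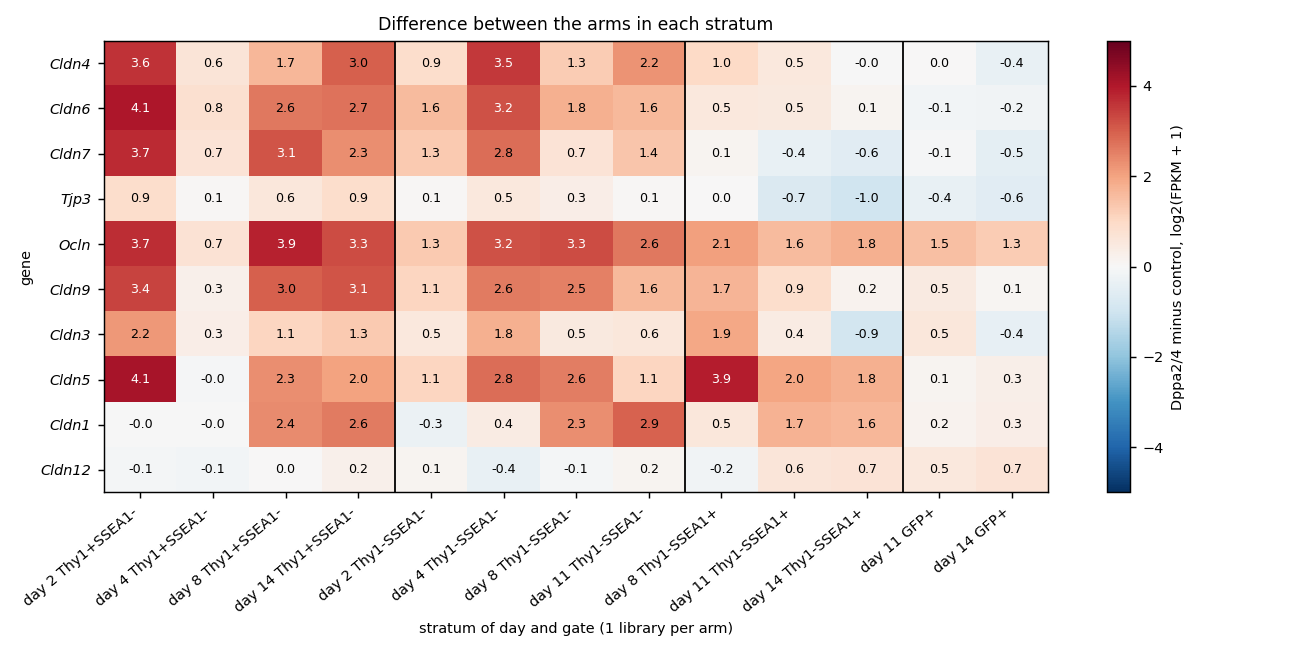
Difference between the arms, Dppa2/4 minus control on the log2(FPKM + 1) scale, for each gene (rows) in each of the 13 strata of day and gate (columns, 1 library per arm, vertical lines between gates). The Thy1+SSEA1- and Thy1-SSEA1- columns are red in most rows, day 4 Thy1+SSEA1- is pale throughout, and Cldn4, Cldn6, Cldn7 and Tjp3 are pale or blue in Thy1-SSEA1+ and GFP+ cells where Ocln stays red, between 1.29 and 2.07.

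The difference between these gates was fitted as an interaction, the Dppa2/4 effect in Thy1-SSEA1+ and GFP+ cells minus its effect in SSEA1- cells. This term mixes gate with day, since the SSEA1- strata begin on day 2 and the others on day 8. It was -2.28 ± 0.49 for Cldn7, -2.13 ± 0.45 for Cldn6, -1.86 ± 0.52 for Cldn4, -1.54 ± 0.51 for Cldn9, -1.10 ± 0.48 for Ocln and -0.96 ± 0.21 for Tjp3 (log2, SE). For Cldn3, Cldn1 and Cldn5 it was -0.71 ± 0.45, -0.40 ± 0.62 and -0.38 ± 0.71, and for Cldn12 it was 0.48 ± 0.16. Without the doubtful library it was -2.47 for Cldn7, -2.35 for Cldn6, -2.07 for Cldn4 and -1.38 for Ocln. The fit called 2 of 10 members lower, Cldn6 and Cldn7, and 0 higher, where 0.847% of all genes were called, 0.423% in each direction, a count that is again read for nothing further. Dppa2 itself was alike in GFP+ cells of both arms, as given above, but not in SSEA1+ cells. There it was at 43.2 to 612 FPKM in 5 Dppa2/4 libraries, Thy1+SSEA1+ cells included, and at 6.40 to 14.1 FPKM in 3 control libraries. The part of Dppa2 in the smaller differences of these gates was not tested.

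Calls among junction genes outside the 10 went both ways. The data held 21 other claudins, of which 5 passed the filter, and 1 was called higher and 1 lower with Dppa2/4. Of 27 other tight junction proteins 26 passed, with 2 called higher and 3 lower, and of 15 regulators of junction genes 14 passed, with 1 called each way. The median difference was -0.02 over the 5 claudins, -0.03 over the 26 proteins and 0.09 over the 14 regulators, near the 0.03 of all genes tested. These lists hold the genes left after the members were chosen on these same data. Their medians are therefore no independent comparison with the 10.

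Marveld2 (tricellulin), the MARVEL protein of the corners where cells meet, was the junction gene that rose most. It was at 4.54, 0.043, 3.56 and 3.62 FPKM in Dppa2/4 and 0.021, 0.037, 0.11 and 0.15 FPKM in control Thy1+SSEA1- cells on days 2, 4, 8 and 14, and higher in 13 of 13 strata. The difference was 1.62 ± 0.20 with an adjusted p of 0.0004. As with its relative Ocln, the difference persisted in Thy1-SSEA1+ cells, at 6.56, 8.45 and 9.56 FPKM in Dppa2/4 and 0.57, 1.58 and 2.51 FPKM in control cells, and the interaction with gate was -0.24 ± 0.42 (adjusted p = 0.778).

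Cldn11, a claudin of myelin and the testis, went the opposite way. It was at 0.13, 0.77, 1.45, 0.67 and 0.95 FPKM in the Dppa2/4 arm of the Thy1-SSEA1- gate on days 2, 4, 8, 11 and 14, against 1.57, 27.1, 15.8 and 6.91 FPKM in the control arm on days 2, 4, 8 and 11. The mean over strata was 0.98 FPKM with Dppa2/4 and 6.79 FPKM with control, and Cldn11 fell by 1.46 ± 0.32 on the log2 scale (adjusted p = 0.0057), lower in 12 of 13 strata. Cldn23 rose at low level, by 0.34 ± 0.10 (adjusted p = 0.027) at 0.48 FPKM with Dppa2/4 and 0.088 FPKM with control.

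The polarity protein gene Mpp5 (Pals1) rose by 0.57 ± 0.15 (adjusted p = 0.013), while the scaffolds Magi1 and Magi2 fell by 0.66 ± 0.13 and 0.33 ± 0.09 (adjusted p = 0.0029 and 0.016) and Sympk fell by 0.28 ± 0.08 (adjusted p = 0.023). Among the regulators the Grainyhead factor Grhl1 rose by 0.77 ± 0.17 (adjusted p = 0.0064) and its relative Grhl3 fell by 0.84 ± 0.19 (adjusted p = 0.0069). The broadly expressed scaffold Tjp1 did not pass, at 71.2 FPKM with Dppa2/4 and 55.2 FPKM with control (difference 0.26 ± 0.11, adjusted p = 0.101). Neither did the linker Cgn (0.07 ± 0.12, adjusted p = 0.702), the adhesion molecule F11r (-0.66 ± 0.24, adjusted p = 0.061) or Grhl2 (-0.17 ± 0.16, adjusted p = 0.471). Without the doubtful library Marveld2, Cldn11, Cldn23, Mpp5, Magi1, Magi2, Sympk, Grhl1 and Grhl3 kept their direction and passed the threshold.

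The mesenchymal repressors of epithelial genes did not pass between the arms either. Zeb1 was at 14.7 FPKM with Dppa2/4 and 12.6 FPKM with control (0.28 ± 0.15, adjusted p = 0.194), Zeb2 at 4.76 and 5.67 FPKM (-0.09 ± 0.15, adjusted p = 0.697) and Snai2 at 8.41 and 8.35 FPKM (0.06 ± 0.13, adjusted p = 0.787), in means over the 13 strata. Among 10 epithelial markers outside the list, 7 had a fitted difference above 0 and the rest did not, with 3 called higher and 0 lower. Those called were the keratins Krt18 (1.77 ± 0.30, adjusted p = 0.0014) and Krt8 (1.11 ± 0.32, adjusted p = 0.0234) and Epcam (1.14 ± 0.26, adjusted p = 0.0077). Among 12 fibroblast markers 1 was called higher and 3 lower. The epithelial genes Krt18, Krt8 and Epcam, and the endothelial Egfl7, Esam, Tek and Erg above, were named after their values were seen.

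Thy1-SSEA1- and Thy1+SSEA1- cells showed no common direction in the 10 genes. Between Thy1-SSEA1- and Thy1+SSEA1- cells of the same arm and day (7 pairs), the median over members was 0.07, and 0 of 10 were called, where 0.0058% of all genes were called as lower and 0 genes as higher. The pairs scattered: in the Dppa2/4 arm Cldn4 was at 0.87 FPKM in Thy1-SSEA1- and 13.2 FPKM in Thy1+SSEA1- cells on day 2, and at 66.7 FPKM in Thy1-SSEA1- and 21.6 FPKM in Thy1+SSEA1- cells on day 14. The day 4 pair held the doubtful library, and without it the median over members was -0.06. Of 12 fibroblast markers, 10 had a fitted difference above 0, that is higher in Thy1-SSEA1- than in Thy1+SSEA1- cells. Their median was 0.75, and 0 of the 12 were called.

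Gain of SSEA1 went with more Cldn4, Cldn6, Cldn7 and Tjp3. In 5 pairs of the same arm and day, Thy1-SSEA1+ exceeded Thy1-SSEA1- cells in 5 of 5 for each of these genes and for Ocln. The mean level was 58.6 FPKM in Thy1-SSEA1+ and 20.1 FPKM in Thy1-SSEA1- cells for Cldn6, 65.9 and 24.0 FPKM in the same order for Cldn4, and 60.7 and 21.6 FPKM for Cldn7. The fitted differences were 2.00 ± 0.37, 1.83 ± 0.36 and 1.74 ± 0.35, and those of Tjp3 and Ocln were 1.22 ± 0.18 and 0.69 ± 0.23. For Cldn6 the difference on day 8 was 2.08 in Dppa2/4 cells and 3.35 in control cells, whose Thy1-SSEA1- level was lower.

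Cldn1 was lower in Thy1-SSEA1+ than in Thy1-SSEA1- cells in 5 of 5 pairs, at a mean of 1.74 and 7.31 FPKM, a difference of -1.44 ± 0.32. Cldn3 (0.56 ± 0.37), Cldn5 (0.40 ± 0.29), Cldn9 (0.36 ± 0.26) and Cldn12 (-0.24 ± 0.13) moved less, with pairs of either sign. The fit called 4 members higher and 1 lower in this comparison, where 18.8% of all genes were called, 8.24% higher and 10.5% lower. As between the arms, nothing is read from that count, since the genes were chosen with results between gates known. Fibroblast and epithelial markers moved with the gate: the summed FPKM of 12 fibroblast markers was 1427 to 2509 in Dppa2/4 and 646 to 2589 in control Thy1-SSEA1+ cells, against 4382 to 12439 in Dppa2/4 and 4718 to 12491 in control Thy1-SSEA1- cells. All 12 were called lower and 5 of 10 epithelial markers higher, and their part in the claudin values was not tested.

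Other junction genes moved with the same gate. Of 26 tight junction proteins 9 rose and 3 fell, and of 14 regulators 6 rose and 5 fell, while 0 of the 5 other claudins were called. The polarity gene Crb3 rose by 1.63 ± 0.23, the tricellular junction gene Ildr1 by 1.20 ± 0.18, Cgn by 1.07 ± 0.16 and Marveld3 by 1.03 ± 0.09 (adjusted p = 0.0131, 0.0142, 0.0142 and 0.0095), while Jam3, Mpdz and Cgnl1 fell by 1.20 ± 0.21, 1.08 ± 0.19 and 0.87 ± 0.16 (adjusted p = 0.0192, 0.0201 and 0.0223). F11r and Marveld2 rose by 0.66 ± 0.15 and 0.56 ± 0.13 (adjusted p = 0.0364 and 0.0391), and Tjp1 did not pass (-0.39 ± 0.17, adjusted p = 0.162). Over the alternatives the call of F11r was lost in 7 of 10, Marveld2 in 7 of 9, and Mpdz and Cgnl1 in 5 of 10 each. That of Cgn was lost in 3 of 9, Jam3 in 3 of 10, Crb3 in 2 of 10, and Ildr1 and Marveld3 in 1 of 9 each.

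The epithelial activators Grhl3, Elf3, Grhl2 and Ovol2 rose by 1.63 ± 0.22, 1.53 ± 0.23, 1.42 ± 0.34 and 1.10 ± 0.16 (adjusted p = 0.0125, 0.0145, 0.0415 and 0.0136). The mesenchymal factors Snai2, Twist1, Zeb1 and Zeb2 fell by 2.04 ± 0.25, 1.94 ± 0.27, 1.56 ± 0.18 and 1.54 ± 0.19 (adjusted p = 0.0113, 0.0129, 0.0108 and 0.0111). Each of these genes moved the same way in 5 of 5 pairs. The call of Grhl2 was lost in 6 of 9 alternatives, and those of the others in 1 to 3 of 9 or 10. The calls rest on few pairs: without the control day 11 pair 0 genes of the whole table were called by limma (4645 at an unadjusted p under 0.05), against 3238 with it, and leaving out each pair in turn gave 0 to 7 rising and 0 to 4 falling tight junction proteins.

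In GFP+ cells most members were lower than in Thy1-SSEA1+ cells. The mean over 5 pairs was 6.91 FPKM in GFP+ and 24.2 FPKM in Thy1-SSEA1+ cells for Ocln, 1.38 and 8.22 FPKM for Cldn9, and 1.72 and 7.39 FPKM for Cldn3. Their differences were -1.64 ± 0.12, -1.95 ± 0.14 and -1.60 ± 0.12, lower in 5 of 5 pairs, with pairs of both arms alike. Cldn1 (-1.04 ± 0.32), Cldn4 (-0.91 ± 0.20) and Cldn12 (-0.49 ± 0.11) were also lower in 5 of 5 pairs.

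Cldn6 and Cldn7 stayed closer to their level in SSEA1+ cells, at 47.6 FPKM in GFP+ and 69.0 FPKM in Thy1-SSEA1+ cells for Cldn6 and at 59.1 and 75.4 FPKM for Cldn7 (-0.48 ± 0.20 and -0.30 ± 0.12, lower in 4 of 5 pairs each). Cldn5 differed by -1.34 ± 0.55, with its control level near 0 in both gates. Tjp3 alone was higher in GFP+ cells, at 7.69 FPKM and 4.87 FPKM in GFP+ and Thy1-SSEA1+ cells (0.63 ± 0.17, 5 of 5 pairs). The fit called 1 member higher and 6 lower, where 41.4% of all genes were called, 17.1% higher and 24.3% lower. That count too is read for nothing further, for the same reason as in the other gates.

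Of the other tight junction proteins 2 rose and 12 fell in GFP+ cells, and 1 regulator rose and 7 fell. Jam2 rose by 1.55 ± 0.17 (adjusted p = 0.0034), to 118 FPKM in GFP+ against 41.9 FPKM in Thy1-SSEA1+ cells, and Sympk by 0.48 ± 0.11 (adjusted p = 0.0182). Cxadr, Marveld2, Mpdz and Jam3 fell by 1.36 ± 0.08, 1.35 ± 0.20, 0.99 ± 0.16 and 0.86 ± 0.17 (adjusted p = 0.0021, 0.0059, 0.0078 and 0.0129). Of the 5 other claudins 3 fell, Cldn11 by 1.38 ± 0.24, Cldn10 by 1.13 ± 0.26 and Cldn34c1 by 0.36 ± 0.11 (adjusted p = 0.0095, 0.0213 and 0.0429). Klf5 rose by 1.60 ± 0.22 (adjusted p = 0.0051), and the epithelial factor Ehf fell by 2.87 ± 0.32 (adjusted p = 0.0034), with Twist1, Snai2 and Zeb2 lower by 1.36 ± 0.24, 0.96 ± 0.30 and 0.91 ± 0.14 (adjusted p = 0.0099, 0.0493 and 0.0063). The counts of genes that fell depended on single pairs. The 12 tight junction proteins were 6 without the control pair of day 11 or of day 14, 5 without the Dppa2/4 pair of day 11 and 6 without that of day 14, and the 7 regulators were 4 without the control pair of day 14 or the Dppa2/4 pair of day 11. The Cldn34c1 call was lost in 8 of 10 alternatives, and those of Cxadr, Jam2, Mpdz, Ehf, Klf5 and Twist1 in 0 of 11.

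**Figure D3:**
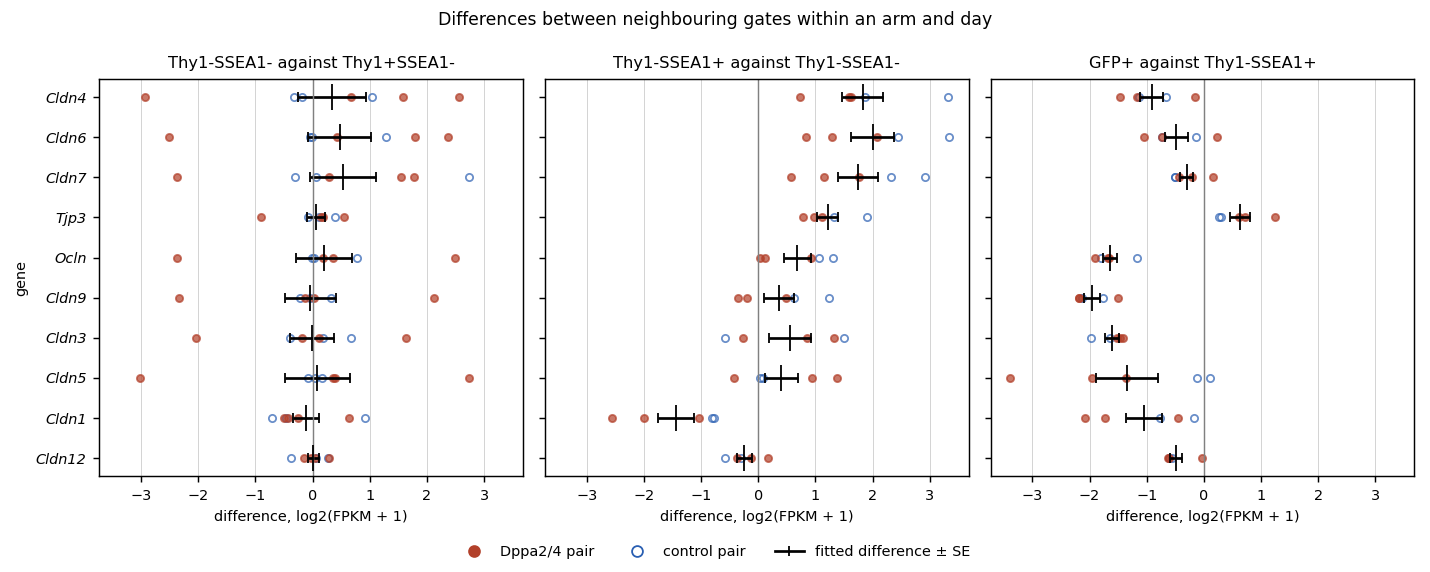
Differences between neighbouring gates of the same arm and day on the log2(FPKM + 1) scale for each gene, with filled points for Dppa2/4 pairs, open points for control pairs, and the fitted difference with its SE in black. Cldn4, Cldn6, Cldn7 and Tjp3 lie right of 0 and Cldn1 left of it in all pairs on the gain of SSEA1 (middle), and Ocln, Cldn9 and Cldn3 lie left of 0 in all pairs between GFP+ and Thy1-SSEA1+ cells (right).

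Over the days, most members had higher levels later in Thy1-SSEA1- cells. With the arm as a term and 9 libraries, the slope per day on the log2 scale was 0.35 ± 0.06 for Cldn4, 0.34 ± 0.04 for Cldn7, 0.33 ± 0.04 for Cldn6 and 0.26 ± 0.05 for Ocln. It was 0.16 ± 0.06 for Cldn1, 0.16 ± 0.04 for Cldn9 and 0.09 ± 0.02 for Tjp3, and for Cldn3, Cldn12 and Cldn5 it was 0.08 ± 0.05, 0.05 ± 0.02 and 0.02 ± 0.05. Day 14 was present in the Dppa2/4 arm alone in this gate. Each slope is shared by the arms, and their courses could differ. Control Cldn1 was at 1.72, 0.78, 0.84 and 1.14 FPKM on days 2, 4, 8 and 11, with no steady rise. The fit called 5 members higher and 0 lower, where 2.58% of all genes were called, 1.74% higher and 0.841% lower. Again nothing is read from the count, since the genes were chosen with results between days known.

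In Thy1+SSEA1- cells (8 libraries) the slopes ran from -0.02 ± 0.09 for Cldn5 to 0.17 ± 0.07 for Cldn1, and 0 of 17242 genes passed. At an unadjusted p under 0.05 there were 4098 genes in limma's fit, and without the doubtful day 4 library 2351 genes passed the adjusted threshold. Among the other junction genes, Crb3, F11r, Cgn, Ildr1 and Marveld3 rose in Thy1-SSEA1- cells by 0.24 ± 0.01, 0.25 ± 0.04, 0.19 ± 0.02, 0.14 ± 0.03 and 0.11 ± 0.01 per day (adjusted p = 0.0012, 0.0275, 0.0103, 0.0461 and 0.0073), as did Grhl1 and Grhl2 by 0.11 ± 0.02 and 0.08 ± 0.01 (adjusted p = 0.048 and 0.0399). Over the alternatives the calls of Crb3 and Marveld3 held in 14 of 14 and 13 of 13, while that of Cgn was lost in 1 of 13, F11r in 8 of 14, Ildr1 in 11 of 13, Grhl2 in 10 of 13 and Grhl1 in 12 of 13.

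**Figure D4:**
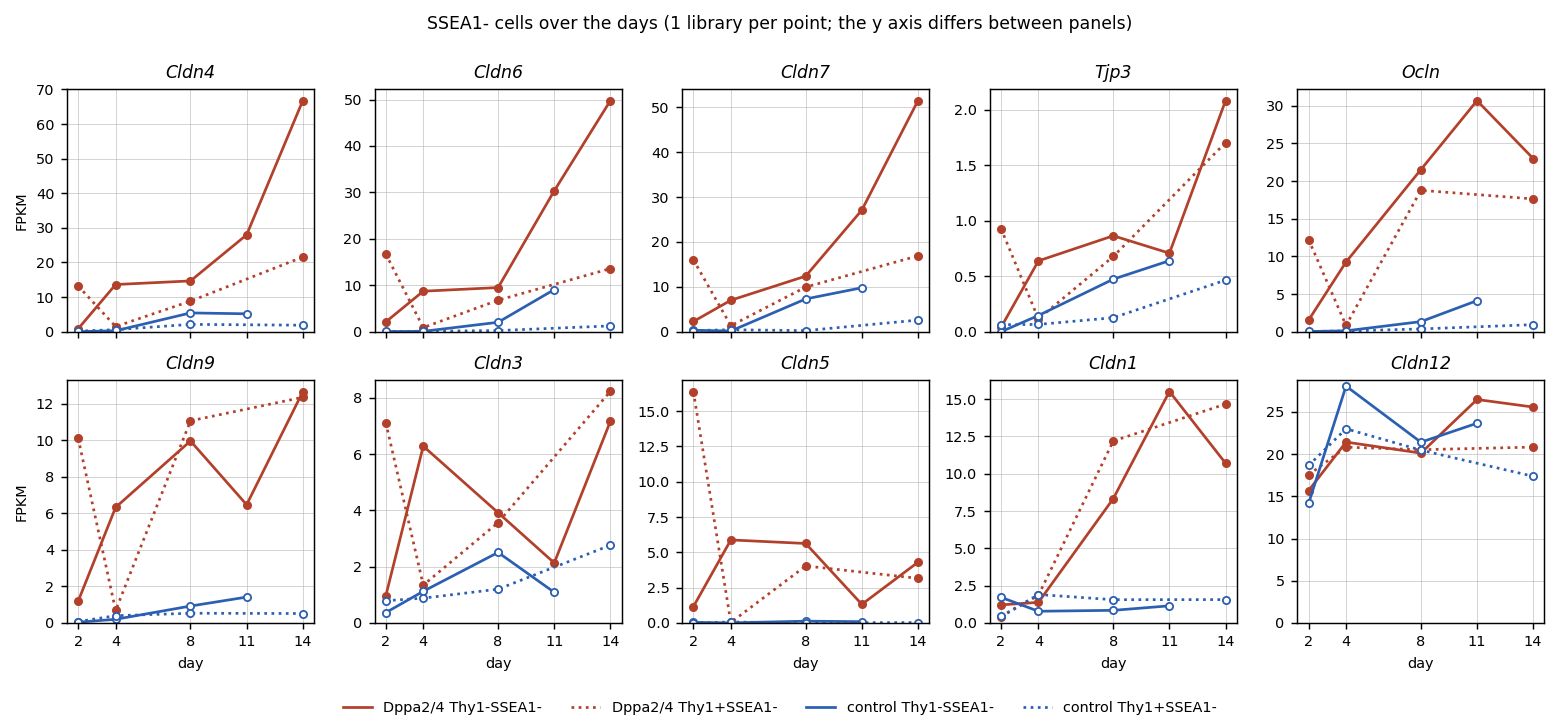
FPKM of each gene by day in Thy1-SSEA1- cells (solid) and Thy1+SSEA1- cells (dotted), with Dppa2/4 libraries in red and control libraries in blue, 1 library per point and a y axis of its own in each panel. Cldn4, Cldn6 and Cldn7 reach 66.7, 49.8 and 51.5 FPKM in Dppa2/4 Thy1-SSEA1- cells on day 14, Cldn1 departs between days 4 and 8 in the Dppa2/4 arm, and the dip on day 4 in the red dotted lines is the library with Dppa2 at control level.

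The Dppa2/4 arm also held Thy1+SSEA1+ cells on days 2 and 4, a gate with no control library. Cldn4 was at 19.1 and 37.3 FPKM in them, Cldn6 at 24.3 and 30.1 FPKM, Cldn7 at 11.5 and 11.9 FPKM, Cldn9 at 10.6 and 8.99 FPKM and Cldn3 at 8.64 and 11.5 FPKM on days 2 and 4. Cldn5 was at 16.4 and 14.7 FPKM, its day 2 level being the highest of the 32 libraries, and Cldn1 was at 0.11 and 0.53 FPKM. Cldn4 and Cldn6 were below their 45.9 and 43.5 FPKM in day 8 Thy1-SSEA1+ cells of the same arm.

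In the pair of libraries titled rtTA-MEF, 8 of the 10 genes were at least 0.33 FPKM in the Dppa2/4 library and at most 0.10 FPKM in the control library. Cldn7 was at 17.2 FPKM in the Dppa2/4 library and 0.050 FPKM in the control library, Cldn5 at 8.67 FPKM and listed at 0, Ocln at 6.57 and 0.098 FPKM, and Cldn3 at 6.08 FPKM and listed at 0, in the same order. Cldn9, Cldn6, Cldn4 and Tjp3 were at 5.32, 3.49, 2.41 and 0.33 FPKM in the Dppa2/4 library. Cldn12 and Cldn1 were closer, at 23.7 and 0.68 FPKM in the Dppa2/4 library and 22.2 and 0.47 FPKM in the control library. Among the junction genes outside the 10, Marveld2 was at 1.61 FPKM in the Dppa2/4 library and 0.053 FPKM in the control library, and Cldn11 at 2.00 FPKM in the Dppa2/4 library and 0.62 FPKM in the control library.

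This pair has no replicate check, and its labels are in doubt. The titles place it on day 2, while the descriptions place it on day 1 and call the cells OSKM-rtTA MEF. Pou5f1 was at 1116 FPKM in the Dppa2/4 library and 122 FPKM in the control library, although the genotype label names no OSKM cassette. Dppa2 was at 4443 and 1.53 FPKM, and in the Dppa2/4 library of this pair both genes were above their highest SSEA1- values in the OSKM cells, 599 FPKM for Dppa2 and 499.6 FPKM for Pou5f1. The part of Pou5f1 in the claudin values of this pair was not tested.

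Across all 32 libraries the members sorted into sets by the correlation of their log2 values, given as a description, since libraries share arm, gate and day. Cldn4, Cldn6 and Cldn7 correlated at 0.95 to 0.98 with each other and at 0.85 to 0.88 with Tjp3. Cldn9 correlated at 0.92 with Ocln, 0.89 with Cldn3 and 0.80 with Cldn5. Cldn12 correlated at most at 0.54 with any other member. Neighbours in the genome were not the closest pairs: Cldn3 and Cldn4, 39279 bases apart on chromosome 5, correlated at 0.65, as did Cldn6 and Cldn9.

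The genes most like each member over the 32 libraries were also looked up among all genes tested. For Cldn4 they were Cldn6 (0.98), Epcam (0.97) and Cblc (0.95), for Cldn6 they were Cldn4 (0.98), Cldn7 (0.97) and Cblc (0.96), for Cldn3 they were Pdgfb (0.90), Cldn9 (0.89) and Tgm1 (0.89), and for Cldn7 they were Cldn6 (0.97), Cldn4 (0.95) and Epcam (0.95). For Ocln they included Tspan13 (0.96) and Marveld2 (0.94), for Cldn9 they were Tm6sf1 (0.93), Pkp3 (0.93) and Marveld2 (0.92), and for Cldn5 they were Fam43b (0.97), Hsd17b1 (0.97) and Gm17244 (0.97). Tjp3 was closest to Camsap3 (0.98), Grb7 (0.98) and Ly6g6e (0.97). Cldn1 and Cldn12 had no gene above 0.87 and 0.85, their closest being Atp2b4 and Rb1.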

How the data were processed

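RNA from sorted reprogramming cells was measured by RNA-seq. The authors deposited FPKM per gene, made with TopHat2 and Cuffdiff on mm10 per the submitters' processing notes; tool versions, annotation and strand use are not given in the sources used here. Columns were matched to libraries by title, the 2 rtTA-MEF columns by elimination, and 1 column that matched no sample label was not used. Control day 11 Thy1+SSEA1- cells are not analysed here. The library titled control day 11 GFP+ carries a description of another gate and was used as titled.

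From the deposited FPKM values, log2(FPKM + 1) was fitted with limma 3.58.1 (R 4.3.3; lmFit, eBayes with trend), with a block for each day and gate or each arm and day, over the 17242 genes that reached 1 FPKM in 2 or more libraries. P-values were Benjamini-Hochberg adjusted over all of them at 0.05, and these fits were tested on simulated data. Libraries of a stratum deviated together, with correlations of 0.207 to 0.755, every pair above 0.1. P-values and SEs measure how a difference varied between pairs of other days, gates or arms, or how libraries scattered around a slope. Part of that may be technical. It is not the spread between replicates of a condition. The fits treat the pairs as independent, although pairs may share a culture. The members and gene lists were chosen with earlier results of these data known. Genes named outside the members are, per comparison and list, up to 4 with the largest called change in each direction, and Tjp1, Cgn, Marveld2, F11r, Grhl2, Zeb1, Zeb2 and Snai2 for their role; likeness names the 3 genes of highest Pearson correlation. Some genes that these rules name are not reported here. Gene symbols were matched through GENCODE identifiers, and promoters came from RefSeq. Alternatives were other pseudocounts, filters, quantile normalization, no block, and leaving out each pair, day or doubtful library.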

Additional observations from a re-analysis of the deposited data

Results flagged for a closer look

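The interaction term of the limma fit, the Dppa2/4 effect in Thy1-SSEA1+ and GFP+ cells minus that in SSEA1- cells, drew attention to 3 genes. As said above, this term mixes gate with day. For the epithelial transcription factor Ehf it was 1.95 ± 0.38 (adjusted p = 0.0354), a call lost in 16 of 25 alternatives, with adjusted p from 0.0233 to 0.850. For Cldn7 and Cldn6 it was -2.28 and -2.13, given as values only, since these members were chosen with the data known and their difference between gates is not tested here. The limma fit called 146 of 17242 genes, and 0 with no replicate block, without day 8 and without day 14, where 895, 3530 and 2199 genes had an unadjusted p under 0.05.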

How the results depend on the processing

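For Dppa2/4 against control 4047 genes were called, against 2278 with a mean FPKM of at least 5, 870 with no replicate block, and 2196, 2197 and 2440 without day 8, 11 and 14; leaving out each pair gave 3070 to 4332. For the interaction 146 genes were called, against 273 with a pseudocount of 0.1, 67 with a mean FPKM of at least 5, 0 with no replicate block, 337 without the Dppa2/4 day 4 Thy1+SSEA1- library, and 15, 0, 35 and 0 without day 2, 8, 11 and 14 (16 to 337 leaving out each pair). For Thy1-SSEA1- against Thy1+SSEA1- 1 gene was called, against 0 with a pseudocount of 0.1, 2 with no filter, 3 with a mean FPKM of at least 5, 9 with no replicate block, and 0 without the day 4 library or any other pair; the member median of 0.07 became -0.057 without that library (-0.057 to 0.47 over pairs). For Thy1-SSEA1+ against Thy1-SSEA1- 3238 genes were called, against 1916 with no filter, 1112 with no replicate block and 0 to 2614 leaving out each pair, and the member median of 0.62 was 1.74 with a mean FPKM of at least 5. For GFP+ against Thy1-SSEA1+ 7145 genes were called, against 4242 with no replicate block and 4001 to 6374 leaving out each pair, and the member median of -0.98 was -1.37 with a pseudocount of 0.1 and -0.49 with a mean FPKM of at least 5. For the slope in Thy1+SSEA1- cells 0 genes were called, against 334 with a mean FPKM of at least 5 and 2351 without the day 4 library (0 to 2351 over libraries). For the slope in Thy1-SSEA1- cells 445 genes were called, against 166 with no filter, 255 with a mean FPKM of at least 5 and 17 to 271 leaving out each library, and the member median of 0.157 was 0.33 with a mean FPKM of at least 5. A filter on the mean leaves fewer members and fewer genes tested; other causes were not tested. The Marveld2 and Cldn11 calls between the arms held in 24 of 24 alternatives each, with adjusted p of 0.0038 to 0.0461 for Cldn11. The call of Cldn23 was lost in 6 of 24 (adjusted p up to 0.282), Magi2 in 3 of 24, Sympk in 4 of 25, Mpp5 in 3 of 25, and Magi1, Grhl1 and Grhl3 in 1 each. With 1 library per condition, members below about 1 FPKM are the least certain.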
